A study of Mus musculus with 3 samples.

Results

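The substitutions described here are single-base differences from the mouse reference genome that all 3 sequenced haploid embryonic stem cell (ESC) lines carried in exons between 40 and 50 Mb of chromosome 11. The sites were chosen by their reads: a position was taken when the depth was at least 10 and the share of reads with the alternate base was at least 0.8 in each line, and genes named Olfr or Vmn (olfactory and vomeronasal receptors) were left out. This gave 335 fixed substitutions in 45 genes, out of 11635 positions in the deposited table and 3765 fixed substitutions of the whole genome. The same values that chose these sites (depth and alternate share) are given below as a description only. The genome of each line was sequenced from a single library, so no spread between cultures could be measured. The lines were androgenetic haploid ESCs, which carry a paternal genome only, with C57BL/6 given as the strain and grown in 2i/Lif medium. O48 (labelled WT, passage 40) lacks the *H19* and *IG* DMRs, a pair of imprinting control regions, and so do both lines made from it. ΔDSM-O48-1 (labelled Dmpk;Six5;Mbnl1-KO, passage 60) is a single-cell clone that descends from O48 by CRISPR-Cas9 editing. ΔDSMD-O48-2 (labelled Dmpk;Six5;Mbnl1;Dmwd-KO, passage 70) is a clone made from ΔDSM-O48-1 by mutating *Dmwd* as well.

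In a haploid line, an inherited substitution is expected in every read, since there is no second chromosome copy to supply the reference base. Inbred mouse strains differ from each other in stretches of linked substitutions, and a coding substitution can be silent (synonymous), change an amino acid (nonsynonymous), or create or remove a stop codon. The stretch studied here holds, among others, the TIM family of immune receptors, a cluster of interferon-inducible GTPases and several genes of cell division.

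The sequences below are shown because they carry the densest amino acid changes of the block, or change 1 codon at 2 bases. They are read 5′ to 3′ on the strand of the gene in GRCm38.p6. Capitals mark the substituted bases, first as in the reference and then as in all 3 lines. Each is 29 bases long, and no other position of the table lies inside any of them. Insertions and deletions were not analysed here.
*Havcr2*, codons 24 to 28 (chr11:46456259-46456287, plus strand), reference: cattggaaAatgCttatGTgTttgaggtt
*Havcr2*, the same bases, 3 lines: cattggaaGatgGttatAAgGttgaggtt
*Havcr2*, codons 43 to 47 (chr11:46456316-46456344, plus strand), reference: acactctaTctacaCctgggGcacttgtg
*Havcr2*, the same bases, 3 lines: acactctaCctacaTctgggAcacttgtg
*Timd2*, S196Y and S196A (chr11:46679646-46679674, minus strand), reference: agaaaccttacccTCtactcctgcaggta
*Timd2*, the same bases, 3 lines: agaaaccttacccGAtactcctgcaggta
*Ifi47*, A242T and A242V (chr11:49096117-49096145, plus strand), reference: acttggatctGggtGCgtttgaTttcccc
*Ifi47*, the same bases, 3 lines: acttggatctAggtATgtttgaCttcccc
*Btnl9*, K122N and V123L (chr11:49180614-49180642, minus strand), reference: tacacatccttaaAGtgcttccctccgac
*Btnl9*, the same bases, 3 lines: tacacatccttaaCCtgcttccctccgac

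The table lists 407 positions in this window, and 335 of them were members. Outside receptor genes, 92.5% of the single-base positions of the window (335 of 362) were fixed, against a background of 36.0% over the genome (3765 of 10452). Because the rule chose on these values, nothing is read from this difference. Another 31 fixed positions in 11 olfactory receptor genes were left out. Another 13 positions met the alternate share but had fewer than 10 reads in a line, between 2 and 9 in the least covered one, and 6 of these lay outside receptor genes. They include *Tgtp1* and *Tgtp2*, near-identical interferon-inducible GTPase genes that both have a synonymous C-to-T change in codon 68, with 2, 3 and 8 reads in *Tgtp1* and 13, 9 and 16 reads in *Tgtp2* (O48, ΔDSM-O48-1 and ΔDSMD-O48-2, all alternate). Reads of such copies may be assigned to either gene. The remaining 28 positions had a share below 0.8 in a line, and none of them came closer to it than 38.9% in its lowest line, while the lowest share of any member was 86.7%.
Of the 21 such positions outside receptor genes, 17 change to C or G, 8 had an alternate genotype in O48 only, 3 in both knockout lines but not in O48, and 4 in all 3 lines. The 3 positions of both knockout lines lay in codons 2, 3 and 9 of *Dppa1*, a gene of the early embryo, where M2L was in 3 of 32 reads of ΔDSM-O48-1, 4 of 39 reads of ΔDSMD-O48-2 and 0 of 29 reads of O48. No position of the window was homozygous in a knockout line with the reference genotype in O48.

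The 3 lines were alike in depth at the members. The depth ran from 11 to 50 reads in O48 (median 32), from 14 to 58 in ΔDSM-O48-1 (median 31) and from 11 to 59 in ΔDSMD-O48-2 (median 31). At 315 of the 335 sites, no line had a read with the reference base. Over all members, reference reads numbered 4 in O48 (0.0373%, exact Clopper-Pearson 95% interval 0.0102% to 0.0955%), 6 in ΔDSM-O48-1 (0.0568%, 0.0209% to 0.124%) and 24 in ΔDSMD-O48-2 (0.230%, 0.148% to 0.343%). They fell on 3, 6 and 16 sites. At the 3430 fixed substitutions elsewhere, the order of the lines was the opposite, with reference reads at 293, 287 and 273 sites and shares of 2.26%, 2.18% and 2.05%. Sites elsewhere reached 3076, 3379 and 3067 reads, and 1 site had 311 reference reads in O48. Sites of such depth weigh heavily in these shares, which do not describe a usual site. The intervals given for the members cover counting error only, and since the rule used the same reads, the lines were not tested against each other. The member with the lowest share was a synonymous change of *Hmmr* (C40709940T), with 4 reference reads among 30 in ΔDSMD-O48-2, 2 among 29 in O48 and 0 among 28 in ΔDSM-O48-1. In *Fam71b*, the changes C46406884A (synonymous) and A46406886G (E339G) each had 3 reference reads among 32 in ΔDSMD-O48-2. The authors' genotype was homozygous in all 3 lines at 334 of the 335 sites.

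**Figure D1:**
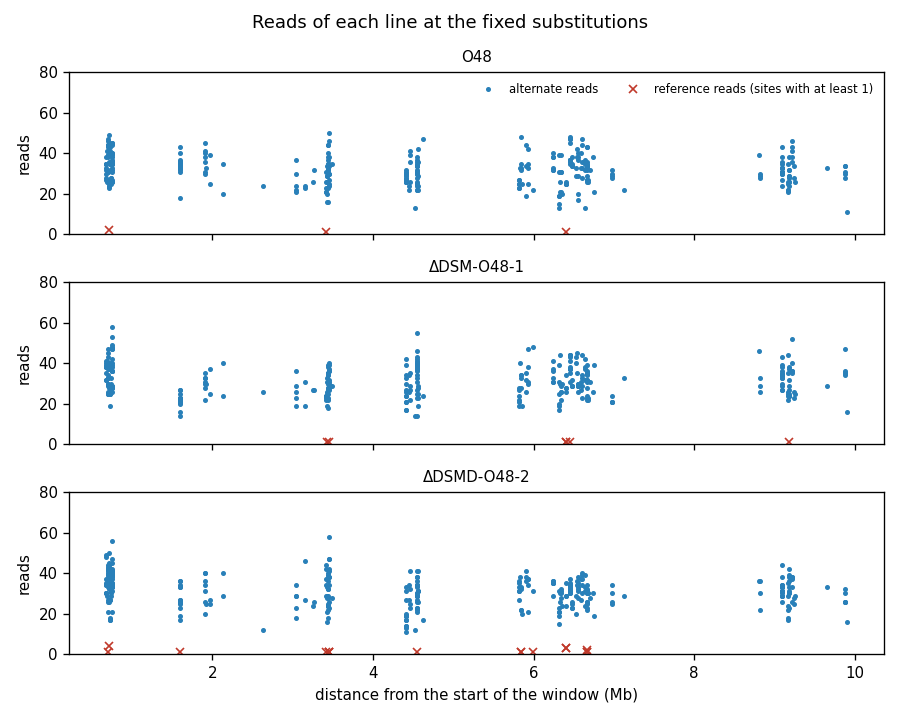
Alternate reads (blue points) and reference reads (red crosses, sites with at least 1) at the 335 fixed substitutions, by distance in Mb from the start of the window, in 1 panel per line. Alternate reads lie at similar heights in the 3 lines (median depth 32, 31 and 31 reads), and reference reads reach at most 4.

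The members cover the window unevenly. The first lies at 40679740 and the last at 49901843, and the median distance between neighbours was 207 bp. Neighbours lay within 100 bp in 132 of 334 pairs and on adjacent bases in 11. Per 1 Mb, the number ran from 81 (46 to 47 Mb, which holds the TIM genes) and 66 (40 to 41 Mb, with *Mat2b*, *Hmmr*, *Nudcd2* and *Ccng1*) to 3 (42 to 43 Mb), 4 (48 to 49 Mb) and 1 (47 to 48 Mb). Exons of the RefSeq annotation, with receptor genes left out, take up 341 kb of the window. Per kb of exon, the number was 4.10 from 40 to 41 Mb and 0.0861 from 48 to 49 Mb. The longest stretch without a member, 1674 kb from codon 108 of *Sgcd* to the 3′ UTR of *Trim41*, holds 12.5 kb of exon. It includes a part of *Sgcd* itself. Another of 919 kb, between *C1qtnf2* and *Il12b*, holds 32.4 kb of exon. Of 62 protein-coding RefSeq genes that lie whole in the window (receptor genes apart), 37 had a member in an exon and 25 had none. Those without one include *Ccnjl*, *Fabp6*, *Pwwp2a*, *Ttc1* and *Adra1b* in the 919 kb stretch. They also include *Rack1*, *Trim7*, *Irgm1*, *Gm5431*, *Gm12185*, *Tgtp1* and *Tgtp2*, from 48800360 to 49064212. This span is not free of members, since those of *Trim41* (3) and of a tRNA gene lie between *Rack1* and *Trim7*.

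The window is part of a longer run on the chromosome. From 36944189 to 56040927, chromosome 11 had 1104 fixed substitutions, of its 1210 in all. On the side toward the start, from 4784490 to 36944188, there were 0 in 1381 kb of exon, and on the other side, from 56040928 to 61673600, there were 0 in 496 kb of exon. Within the run, the number per kb of exon was 0.716 before 40 Mb (9 substitutions), 0.982 in the window and 1.61 after 50 Mb (760 substitutions). For comparison, the rest of the genome had 0.0282 per kb of exon. Among 286 windows of 10 Mb, the median number was 0 and 151 windows had none. By number, the window from 40 to 50 Mb had rank 3, after 50 to 60 Mb of the same chromosome (760) and 80 to 90 Mb of chromosome 3 (409). By number per kb of exon it came first, with 0.982 against 0.978 for 50 to 60 Mb, which had rank 2. The ends of the run were set after the values were seen. The reference is the genome of C57BL/6J, the label of the lines is C57BL/6, and the origin of this run was not tested.

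**Figure D2:**
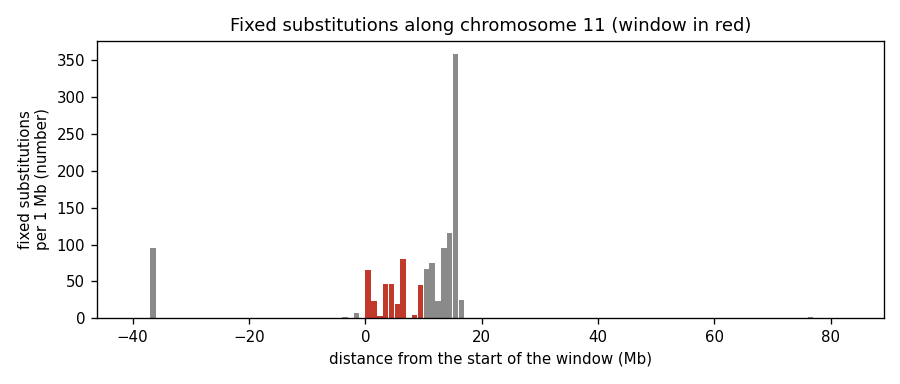
Fixed substitutions per 1 Mb of chromosome 11, by distance in Mb from the start of the window (bars, the window in red). Apart from 1 bin near the start of the chromosome (96), nearly all lie in the red bars and in those just after them, where 760 were counted against 335 in the window.

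By effect, 45.7% of the members (40.2% to 51.2%) were in a 3′ UTR. Another 84 were synonymous, 69 nonsynonymous, 21 in a 5′ UTR and 5 listed as gained starts. The others were 1 stop-gain, 1 stop-loss and 1 at a splice acceptor. In the rest of the genome, 33.6% of the fixed substitutions (32.0% to 35.2%) were in a 3′ UTR, a difference that was not tested. The genes with the most members were *Hmmr* (26), *Rnf145* (26), *Slu7* (25), *Ccng1* (19) and *Timd2* (16), and 13 genes with at least 10 members held 218 of the 335. A nonsynonymous, stop or splice-site change was found in 24 genes, and 21 had silent or UTR changes only.

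**Figure D3:**
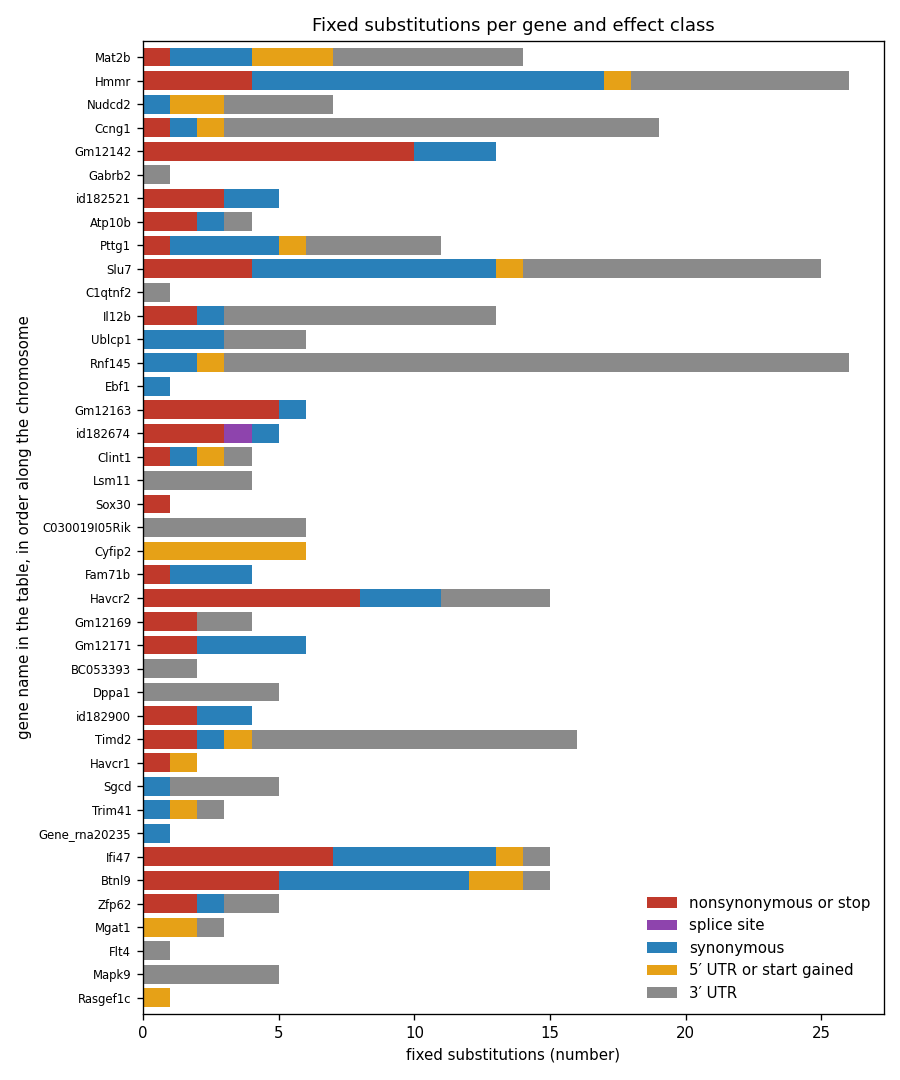
Number of fixed substitutions in 41 of the 45 genes, in order along the chromosome from top to bottom, with the bar split by effect class. Red, for nonsynonymous or stop changes, is longest in *Gm12142* (10), *Havcr2* (8) and *Ifi47* (7), while *Rnf145* and *Ccng1* are mostly grey for the 3′ UTR (23 and 16).

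The TIM genes, which encode surface receptors of T cells and of cells that take up dying cells, had 37 members in 4 of the 5 genes of the list that the annotation or the table places in the window. Among all 62 protein-coding genes of the window (receptor genes apart), 37 had a member, and the list was not tested against this share. *Havcr2* encodes TIM-3, an inhibitory receptor of T cells. It had 15 members, of which 8 were nonsynonymous, all of them within 70 bp of exon 2 of 7. In the first group of 13 bases, A46456267G (N24D) was in all 36, 35 and 31 reads of O48, ΔDSM-O48-1 and ΔDSMD-O48-2. C46456271G (A25G) was in 35, 37 and 32 reads, and T46456279G (F28V) in 37, 38 and 31. Each change is written as reference base, position on chromosome 11 and alternate base. Between these sites, the table lists V27M (G46456276A, 37, 37 and 33 reads) and V27E (T46456277A, 37, 37 and 32 reads) as separate changes. Both bases belong to codon 27, and no line had a reference read at either, so that both are on the same chromosome copy. The codon is then GTG in the reference and AAG in the lines, which gives V27K, an amino acid that neither entry states. The second group is T46456324C (S43P, 47, 44 and 34 reads), C46456330T (P45S, 47, 44 and 35) and G46456336A (A47T, 48, 44 and 37), again with no reference read. Between the groups, a synonymous change in codon 32 had 1 reference read among 42 in ΔDSM-O48-1.

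*Timd2* encodes TIM-2, a receptor for ferritin. Its 16 members were mostly in the 3′ UTR (12), and G46679660T (S196Y, 27, 23 and 30 reads) and A46679661C (S196A, 26, 22 and 30) fell in 1 codon of exon 5 of 9. On 1 chromosome copy they change TCT to GAT, or S196D, in place of the tyrosine and the alanine listed. *Havcr1* encodes TIM-1, a receptor for phosphatidylserine that is also known as kidney injury molecule. It had a single nonsynonymous change, G46756150C (R137T), in all 21, 39 and 19 reads. *Gm12169* is a further gene of the TIM list, and had C46528416G (H20D, 33, 43 and 29 reads) and A46528591G (N78S, 29, 40 and 20 reads). *Timd4*, which lies next to *Havcr1*, had no member.

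Of the 9 interferon-inducible GTPase genes of the list, which act in cells against intracellular pathogens, only *Ifi47* had members. Over the window, 37 of 62 protein-coding genes had a member, and the list was not tested against this share. *Ifi47* had 15 members, all in exon 3 of 3, with 7 nonsynonymous and 6 synonymous changes and 1 in each UTR. The nonsynonymous changes near the start were G49095438A (G11S, 27, 27 and 29 reads), G49095454A (S16N, 24, 29 and 29) and T49095589G (I61S, 36, 33 and 33). Further along came G49095837A (A144T, 30, 39 and 30 reads) and T49096098C (C231R, 33, 34 and 33). The alternate base was in all reads of all 3 lines at each of them. G49096131A and C49096132T are listed as A242T and A242V, with 33, 34 and 31 reads each. They change GCG to ATG, so that the codon gives methionine (A242M). The 8 other genes include *Irgm1*, a regulator of this family, and the copies *Tgtp1* and *Tgtp2*, whose positions were short of depth. Depth is known only at listed positions, so a gene without a member was not shown to match the reference. In *Gm5431*, L101F had alternate reads in 8 of 53 reads of O48, 7 of 47 of ΔDSM-O48-1 and 0 of 36 of ΔDSMD-O48-2, and was no member.

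Genes of cell division had 63 members in 4 of the 5 genes of the list. In the whole window, 37 of 62 protein-coding genes had a member, and the list was not tested against this share. *Hmmr*, the receptor for hyaluronan that also binds the mitotic spindle, had 13 synonymous and 4 nonsynonymous changes. These were G40714002T (T414K, 23, 37 and 45 reads), C40723403A (A153S, 40, 27 and 18), G40723416C (N148K, 41, 29 and 17) and G40723579A (A94V, 35, 25 and 27), the last 3 in exon 5 of 18. The stretch with N148K and A153S is shown since both lie within 29 bases.
*Hmmr* (chr11:40723395-40723423, minus strand), reference: gagccaaCgagctactaaagGctaaggta
*Hmmr*, the same bases, 3 lines: gagccaaGgagctactaaagTctaaggta
*Pttg1* encodes securin, which holds back separase until the chromosomes part. Its nonsynonymous change, G43425625T (R16S), was in all 29 reads of O48, 31 of 32 of ΔDSM-O48-1 and all 33 of ΔDSMD-O48-2.
*Pttg1*, codon 16 (chr11:43425611-43425639, minus strand), reference: atgaagaacccggcCgccgtttggcatct
*Pttg1*, the same bases, 3 lines: atgaagaacccggcAgccgtttggcatct
*Ccng1*, which encodes cyclin G1, had 16 of its 19 members in the 3′ UTR and 1 nonsynonymous change, A40754044C (S9A, 27, 28 and 37 reads). *Nudcd2* had 7 members and no amino acid change, and *Ccnjl* had no member.

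*Il12b*, from the list of cytokine and lymphocyte genes, had 13 members with 2 amino acid changes. It encodes the p40 subunit that interleukins 12 and 23 share. T44410164C (M169T) was in all 31, 27 and 33 reads and T44412527C (F294L) in all 26, 34 and 19. Both are shown since they lie in different exons (5 and 7 of 8).
*Il12b*, M169T (chr11:44410150-44410178, plus strand), reference: agtgacatgtggaaTggcgtctctgtctg
*Il12b*, the same bases, 3 lines: agtgacatgtggaaCggcgtctctgtctg
*Il12b*, F294L (chr11:44412513-44412541, plus strand), reference: tgcagaaaggtgcgTtcctcgtagagaag
*Il12b*, the same bases, 3 lines: tgcagaaaggtgcgCtcctcgtagagaag
In the same list, *Ebf1*, a transcription factor of B cells, had 1 synonymous change, and *Cyfip2*, a subunit of the actin-regulating WAVE complex, had 6 members in its 5′ UTR. *Adam19* and *Med7* had none.

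*Btnl9*, a butyrophilin-like gene, had 15 members, with nonsynonymous changes T49174852C (Q291R, 21, 35 and 29 reads), A49175621G (I271T, 22, 26 and 18) and C49180583G (D138H, 26, 29 and 33). Its changes C49180628G (V123L, 32, 24 and 30 reads) and T49180629G (K122N, 32, 24 and 30) lie on adjacent bases but in neighbouring codons, so that each entry holds as listed. Of the other genes in the list of butyrophilins and TRIM genes, *Trim41*, which encodes a ubiquitin ligase, had 3 members without an amino acid change, and *Trim7* and *Rack1* had none.

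*Slu7*, a splicing factor that acts in the second step of splicing, had 25 members. Its 4 nonsynonymous changes lay within 42 bases of exon 15 of 17, namely G43445209A (G473D, 35, 28 and 24 reads), C43445218G (A476G, 35, 22 and 25), G43445244A (A485T, 33, 23 and 24) and C43445250A (L487M, 33, 25 and 24). The other 9 coding changes of *Slu7*, spread from codon 105 to codon 575, were synonymous. Among genes of glycosylation and metabolism, *Mat2b*, which encodes the regulatory subunit of methionine adenosyltransferase, had 14 members with 1 nonsynonymous change, G40680091A (T302I, 32, 38 and 48 reads). *Atp10b*, a lipid-transporting ATPase, had A43153305G (I119M, 24, 19 and 46 reads) and C43259591T (T1372I, 26, 27 and 24). *Mgat1*, an enzyme of N-glycan synthesis, had 3 UTR members, and *Gfpt2* and *Fabp6* had none. *Sgcd*, which encodes a sarcoglycan of muscle, had 5 members (4 in the 3′ UTR, 1 synonymous). *Flt4*, the receptor of lymphatic vessel growth, had 1 and the kinase gene *Mapk9* had 5, all in the 3′ UTR. Outside the lists, single nonsynonymous changes were found in *Clint1* (A45906430G, N446S, 19, 32 and 38 reads), *Sox30* (C45991874T, A577V, 22, 48 and 32 reads with 1 reference read in ΔDSMD-O48-2) and *Fam71b* (A46406886G, E339G, 25, 27 and 32 reads, of which 0, 1 and 3 had the reference base). *Zfp62*, a zinc finger gene, had L123S (T49215451C, 41, 52 and 26 reads) and R172H (G49215598A, 43, 36 and 33 reads). *Rnf145*, a ubiquitin ligase gene with 23 of its 26 members listed in the 3′ UTR, had no amino acid change. Most of these 23 lay in the last exon of a RefSeq transcript of 6 exons. That exon precedes the coding changes of the gene, which lay in exon 10 of the transcript of 11 exons.

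Of the 155 coding members, 115 lay in a coding sequence of the RefSeq annotation of GRCm38.p6, and 112 of these gave the same amino acid change there. The others of the 115 were synonymous in both and differed in the codon number only. The remaining 40 coding members, in 8 genes, lay outside every RefSeq coding sequence. Of the 71 nonsynonymous and stop changes, 45 in 17 genes were inside one and 26 were not. None of the 3 stop and splice-site changes lay in a gene that RefSeq gives as protein-coding. The stop-loss A41591993G (stop codon to tryptophan, all 31, 25 and 17 reads) is in *Gm12142*, which RefSeq gives as a pseudogene. The stop-gain R41* (C45813724T, all 27, 24 and 31 reads) is in the pseudogene *Gm12163*. The splice acceptor change (G45838007C, all 35, 33 and 32 reads) is in the gene listed as id182674, which coincides with the long non-coding RNA gene *F630206G17Rik*, at the last intron base before an exon. These sites are printed because they are the only changes of high impact that the table lists for the block.
*Gm12142* (chr11:41591979-41592007, plus strand), reference: aagttccagatctgAtggagaattttgtt
*Gm12142*, the same bases, 3 lines: aagttccagatctgGtggagaattttgtt
*Gm12163* (chr11:45813710-45813738, plus strand), reference: gagctagttctcccCgagccctgctgaaa
*Gm12163*, the same bases, 3 lines: gagctagttctcccTgagccctgctgaaa
*F630206G17Rik* (chr11:45837993-45838021, plus strand), reference: tttttttcccattaGatcatatttgtatc
*F630206G17Rik*, the same bases, 3 lines: tttttttcccattaCatcatatttgtatc
The other amino acid changes of *Gm12142* were L6V (C41591137G), H27R (A41591201G), A32V (C41591216T), E60K (G41591299A), R71G (A41591332G), T91S (A41591392T), A94T (G41591401A), T96S (A41591407T) and K131E (A41591512G). With the stop-loss, their depth ran from 18 to 43 reads in O48, 14 to 27 in ΔDSM-O48-1 and 17 to 36 in ΔDSMD-O48-2, and 1 read of E60K in ΔDSMD-O48-2 had the reference base. *Gm12163* also had A20V (C45813662T), R26Q (G45813680A), F50V (T45813751G) and I56K (T45813770A), with 19 to 36 reads in a line. For id182674 the table lists R104W (C45831560T, 33, 40 and 38 reads), E201K (G45838091A, 32, 34 and 23 with 1 reference read in ΔDSMD-O48-2) and K338E (A45841494G, 33, 28 and 22). The gene listed as id182521 lies in an intron of *Atp10b* and had R40K (G43035593A, 21, 19 and 23 reads), T168S (C43035977G, 24, 26 and 18) and V416M (G43036720A, 30, 29 and 29). The one listed as id182900 coincides with the transcribed pseudogene *Gm4926*, with L440F (G46636808A, 35, 37 and 31 reads) and E409D (C46636899G, 37, 38 and 24). Under *Gm12171* the table lists S9L (C46548438T, 17, 29 and 38 reads) and T23M (C46550397T, 40, 29 and 32), at positions that RefSeq places between genes. An entry listed as synonymous in Gene_rna20235 (G48823751A) falls in a tRNA gene.

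Within RefSeq coding sequence, 69 members changed the third base of a codon, 24 the first and 22 the second. Of these, 3, 20 and 22 were nonsynonymous. BLOSUM62 is a scale on which amino acid exchanges that are rare between related proteins score below 0. It was below 0 for 19 of the 45 nonsynonymous changes, each scored as listed for its own base. Members fell on 2 bases of 1 codon in 3 cases, the codons of *Havcr2*, *Timd2* and *Ifi47* named above, and in each the amino acid of the whole codon was not the one listed for either base. For the whole codons, the score was -2 (V27K), 0 (S196D) and -1 (A242M). None of the 5 gained starts makes an ATG. They lie in *Pttg1* (G43426202C), *Cyfip2* (A46312116G), *Timd2* (G46707082A), *Trim41* (G48817107A) and *Btnl9* (G49183078A). The new triplets were TTG in *Pttg1*, *Trim41* and *Btnl9* and CTG in *Cyfip2* and *Timd2*, and in *Cyfip2* and *Btnl9* the reference already has the other of these (TTG and CTG). In *Pttg1*, *Timd2* and *Trim41*, a stop codon in the same frame comes before the start codon of the gene.

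Neither the kinds of base change nor the protein-changing share (as listed) differed past the threshold. Transitions (purine to purine or pyrimidine to pyrimidine) made up 230 of 335 members (68.7%, 63.4% to 73.6%) and 2450 of 3430 fixed substitutions elsewhere (71.4%, 69.9% to 72.9%), with p = 0.283 in a two-sided Fisher's exact test. Of the coding members, 71 of 155 were listed as changing the protein (45.8%, 37.8% to 54.0%), against 1035 of 2027 elsewhere (51.1%, 48.9% to 53.3%), with p = 0.212 in the same exact test. Of these 71, 26 lay outside every RefSeq coding sequence. Within it, an alternative chosen after seeing the data, the shares were 39.1% and 39.4%. After Benjamini-Hochberg adjustment over these 2 exact tests, both had p = 0.283. A p above the threshold does not show that the shares are equal, and the substitutions of a block are linked, so that the tests compare lists of sites. When substitutions with another within 10 bp were left out, the protein-changing share was 36.9% in the block and 49.1% elsewhere (exact p = 0.0141), and against the rest of chromosome 11 it was higher in the block by 1.67 percentage points. At CpG sites lay 57 of 335 members (exact interval of the share 13.1% to 21.5%) and 583 of 3430 others (15.8% to 18.3%). In the neighbouring 10 Mb, from 50 to 60 Mb, transitions made up 74.5%, and substitutions listed as protein-changing made up 38.5% of those that were coding.

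**Figure D4:**
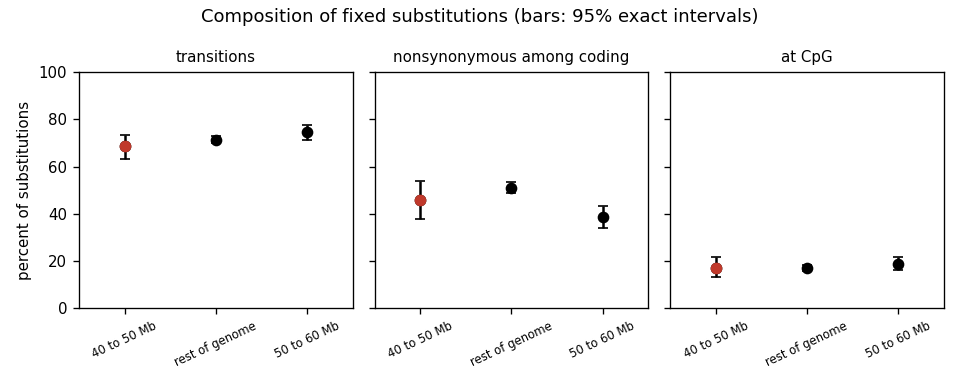
Percent of fixed substitutions that are transitions, that are listed as changing the protein (of coding ones) and that lie at CpG sites. Shown are the window (red), the rest of the genome and 50 to 60 Mb of chromosome 11, with exact 95% intervals as bars. Listed changes outside RefSeq coding sequence are counted. The interval of the window overlaps that of the rest of the genome in each panel (68.7% against 71.4%, 45.8% against 51.1%, and 57 of 335 against 583 of 3430 sites).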

How the data were processed

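Genomic DNA of 3 haploid ESC lines was sequenced, with 1 library per line. The submitters' processing notes name CASAVA 1.8.2, BWA 0.7.12, SAMtools, Picard and GATK and the build mm10; the filters behind the table are not given in the sources used here. The deposited counts give all reads and reference reads at a site, and the alternate reads, which the authors list as 1 count per allele in the file. Deposited quality scores and the authors' allele fraction were not used. The table has 14685 entries, 1 per transcript. Of the effects at a position, that of highest impact was kept (the first on ties), and sites with several alternate alleles were left out, which leaves 11544 positions. The reference base equalled that of GRCm38.p6 at all 335 members. RefSeq genes of that build were used to check amino acid changes, join bases of 1 codon and measure exon length (Olfr and Vmn genes left out). Protein sequences were not used here.

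Shares of reads and of sites have exact Clopper-Pearson intervals at the 95% level, which cover counting error only, and 2 shares were compared with the rest of the genome by two-sided Fisher's exact tests. As a check of the code, the rule was run on simulated data and returned 600 of 600 planted sites among 3000, and 0 others. The planted sites were made to meet the rule, so this result does not measure how often the rule errs on real reads. Members and gene lists were chosen with earlier results of these data known. Genes were named when they had an amino acid, stop or splice-site change, were among the 10 with most members or stood in a list. Some genes that met this rule are not reported here. Tests ran in scipy 1.17.1 and statsmodels 0.14.6, tables in pandas 2.3.3 and numpy 2.4.6 (Python 3.11.15), codons in Biopython 1.88 and figures in matplotlib 3.10.9.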

Additional observations from a re-analysis of the deposited data

How the results depend on the processing

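The alternatives were no depth minimum, a minimum of 20 reads, an alternate share of at least 0.9 or of 1, homozygous genotypes, receptor genes kept, the first entry per position and sites with another within 10 bp left out. Under these 8, the number of fixed substitutions in the block ran from 258 to 366 and that of their genes from 42 to 56. The difference in transitions (block minus the rest of the genome) ran from -3.78 to -2.06 percentage points, the lowest within RefSeq coding sequence. Against the rest of chromosome 11 only, it was -5.17 points. All 10 alternatives had p above 0.05 in two-sided Fisher's exact tests. The difference in substitutions listed as protein-changing was -5.25 points. It was -12.2 points (p = 0.0141, two-sided Fisher's exact test) without sites that have another within 10 bp, (the cause was not tested), and it turned to 1.67 points (p = 0.715) against the rest of chromosome 11 only (the cause was not tested). Within RefSeq coding sequence, an alternative chosen after seeing the data, it was -0.257 points (39.1% against 39.4%). The other 7 alternatives kept the direction and p above 0.05. No paired analysis was possible because each line was sequenced once. Depth of 11 to 59 reads per site and line limits how small a share of reference reads could be seen at 1 site.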
